A study of Mus musculus with 7 samples.

Results

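Insulin, insulin-like growth factors (IGFs) and growth hormone act on bone through a small set of ligands, receptors and feedback proteins, and 10 of their genes were followed here in sorted osteoblasts. The genes were the ligands Igf1 and Igf2, the binding protein Igfbp5, the receptors Ghr, Igf1r, Insr and Igf2r, the docking proteins Irs1 and Irs2, and the feedback inhibitor Socs2. They were taken by symbol from the 23725 gene IDs of the deposited counts, and all 10 were present. Osteoblasts are the bone-forming cells. They came from male C57BL/6 mice with tumor alleles that Cre recombinase switches, p53Flox/Flox among them, and with Ocn-GFP, a reporter that marks cells in which the osteocalcin promoter is active. Adenovirus with Cre (AdCre) put into the airways starts lung tumors in such mice; every mouse, tumor-free ones included, carried these alleles. The tumor-bearing group (osteoblast_tumor) had 4 mice taken 14 weeks after the virus, of which replicates 1 to 3 were 31 weeks old and replicate 4 was 23 weeks old. The tumor-free group (osteoblast_ctrl) had 3 mice, replicates 1 and 2 at 31 weeks and replicate 3 at 23 weeks; the labels do not say whether they received any virus. The study matched the groups for age, sex and litter. From each mouse 2000 cells positive for GFP and negative for CD45, CD31 and an erythroid marker were sorted from digested bone pooled with lineage-depleted marrow, and made into 1 library of transcript 3′ ends.

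Growth hormone binds its receptor and signals through the kinase JAK2 and the transcription factor STAT5, which induce Igf1 in the liver and, to a lesser degree, in bone; they also induce Socs2, which then damps the receptor. IGF1 and IGF2 bind the IGF1 receptor, insulin binds the insulin receptor, and both receptors are tyrosine kinases that pass the signal to the docking proteins IRS1 and IRS2 and on to PI3K, AKT and the RAS pathway. The IGF2 receptor has no kinase and removes IGF2 from the cell surface, while IGFBP5 holds IGFs in bone matrix. In osteoblasts IGF1 supports matrix formation and survival, and its transcript is known to respond to parathyroid hormone.

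Total counts per library were 77127 to 169774 in tumor-bearing and 102144 to 122911 in tumor-free mice, so the limit set by a count of 0, taken as 3 counts, equals 16.9 to 41.1 CPM (counts scaled to a common library of 1000000, here and throughout on TMM-scaled library sizes). This limit covers counting error only. Of the defining markers, Col1a1 had 23 to 96 and Runx2 had 7 to 35 counts per library, the osteocalcin gene Bglap had 0 to 2, Ptprc (CD45) had 0 to 2 and Pecam1 (CD31) had 0 in every library. Osteocalcin itself was thus near the limit of detection in cells sorted by its reporter. Over 12 osteoblast markers, all detected, the summed level was 1135 to 1673 CPM in tumor-bearing and 1483 to 2539 CPM in tumor-free libraries. The marrow stroma list, with 7 of 8 genes detected, had 770 to 1193 CPM in tumor-bearing and 749 to 838 CPM in tumor-free libraries. Most of that sum was Lepr, with 629 to 933 CPM in tumor-bearing and 564 to 685 CPM in tumor-free libraries. Cxcl12 had 1 to 4 counts and Kitl 0 to 5 counts per library. The erythroid list, 6 genes all detected, was lower in each tumor-bearing library (68.2 to 109.7 CPM) than in each tumor-free one (127 to 195 CPM), while lists for chondrocytes (617 to 2869.5 CPM in tumor-bearing and 854 to 1060.3 CPM in tumor-free) and for leukocytes and neutrophils (1433 to 2057 CPM in tumor-bearing and 1576 to 2241 CPM in tumor-free) overlapped. Most of the leukocyte and neutrophil sum was Cxcr2, with 1185 to 1961 CPM in tumor-bearing and 1537 to 1783 CPM in tumor-free libraries. Mmp8 followed, with 13.6 to 247 CPM in tumor-bearing and 29.2 to 450 CPM in tumor-free libraries. S100a8, Elane, Camp and Ltf were at 0 in every library. The part of these lists in the results below was not tested.

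Because the libraries were made from 3′ ends, the ends of the members' transcripts are the sequences the counts depend on. The longest protein-coding transcript of each member in GENCODE M21 (GRCm38, the assembly of mm10) was used. The AATAAA polyadenylation signal, read on the transcript strand only, lay within the last 40 bases of 8 of the 10 transcripts, against 59.1% of all 19977 genes with such a transcript. The other two, Igf1 and Irs1, hold the variant ATTAAA there, which 16.1% of all genes do. Shown here, with the signal in capitals, are 30 bases at the ends of the members with the most and the fewest counts. All lie in 3′ UTRs: Socs2 at chr10:95411500-95411529 (minus strand, ending 10 bases before the transcript end), Igf1 at chr10:87937013-87937042 (plus), Igf1r at chr7:68233639-68233668 (plus), Irs2 at chr8:10984681-10984710 (minus) and Ghr at chr15:3317760-3317789 (minus).
Socs2: tcaAATAAAaacaaacctgacttttacaag
Igf1: attacATTAAAattaatcatgtttgattaa
Igf1r: attaagttaAATAAAagaattctgtatgca
Irs2: taaAATAAAatacattatttatgaaatgaa
Ghr: ttcaaagttcAATAAAtttattttcttgga
Over the 7 libraries Irs2 had 3 counts, Ghr 1, Socs2 413 and Igf1r 240, and the transcript used for each holds AATAAA near its end. The part of the signal in the counts was not tested. The Socs2 gene, as placed by its gene ID, reaches to chr10:95383903 on the minus strand, beyond the end of the transcript used here. Which transcript end gave the Socs2 counts was not tested.

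Oligo(dT), which primes such libraries, can also anneal to runs of A inside a transcript, and 5 of the 10 members hold such a stretch (11 or more A within 12 bases, the final 100 bases not counted). Of the genes that could be tested 40.4% hold one, of those that could not 15.3%, and of all genes 18.1%. The genes tested also have longer transcripts, with a median of 4121 bases against 2689 for those not tested. The part of length in these shares was not tested. Igf1 has 3 stretches, Igf1r has 8, and Socs2, Irs2 and Igfbp5 have 2 each. As examples of how such stretches look, 30 bases at the longest one of Socs2 and of Igf1r follow, with runs of at least 6 A in capitals. Both lie in 3′ UTRs: Socs2 at chr10:95412008-95412037 and Igf1r at chr7:68232468-68232497, on the strands given above.
Socs2: aaaggAAAAAAAAAAAAAAAAAAgaaacga
Igf1r: ataaataaaacAAAAAAAAAtaaaacagat
A stretch is held by Socs2 (413 counts), Igf1 (266), Igf1r (240), Igfbp5 (20) and Irs2 (3). None is held by Irs1 (169 counts), Igf2r (96), Insr (39), Igf2 (30) and Ghr (1). How many counts came from inside a transcript was not tested.

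**Figure D1:**
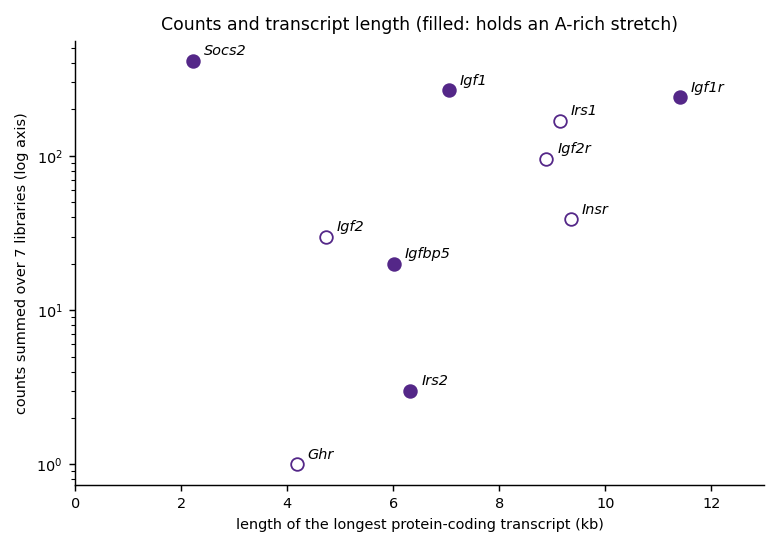
Counts of each member summed over the 7 libraries (log axis) against the length of its longest protein-coding transcript in kb, with filled points for transcripts that hold an A-rich stretch. Socs2 has the most counts (413) on the shortest transcript, and Ghr (1 count) and Irs2 (3 counts) lie far below the rest. The Socs2 gene reaches beyond the end of the transcript used.

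Per length of transcript, as counts summed over the 7 libraries per kb, the members ran from Socs2 at 186 over Igf1 at 37.7, Igf1r at 21.04, Irs1 at 18.5 and Igf2r at 10.8 to Igf2 at 6.35, Insr at 4.17, Igfbp5 at 3.33, Irs2 at 0.474 and Ghr at 0.240. The transcripts range from 2222 bases for Socs2 to 11409 for Igf1r. The length and rank of Socs2 hold for the transcript used only, since the gene reaches beyond its end. In a library of 3′ ends a long transcript need not give more counts, so this order is a description only.

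Whether a lung tumor goes with a change of this pathway in distant bone was asked with the quasi-likelihood test of edgeR, which took age as a factor, and Benjamini-Hochberg adjustment over the 2495 genes with enough counts. Of the 10 members 5 could be tested (Igf1, Igf1r, Igf2r, Irs1 and Socs2), and 0 passed, as did 0% of all genes tested. At an unadjusted p under 0.05 there were 0 members, against 2.69% of all genes tested (1.68% lower and 1% higher in tumor-bearing mice). That member count was 1 or 2 in 5 of the alternative fits given in the closing section. The count over all genes in each of those 5 fits is given there. For 0 of the 5 did the groups of libraries not overlap, against 3.53% of all genes tested (1.32% lower in tumor-bearing mice). The median log2 fold change, tumor-bearing over tumor-free, was -0.44 over the 5 members (4 below 0 and 1 above) and 0.04 over all genes tested, of which 45.9% were below 0. In bulk RNA of sorted cells, fewer cells that express a gene and less RNA per cell cannot be told apart.

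**Figure D2:**
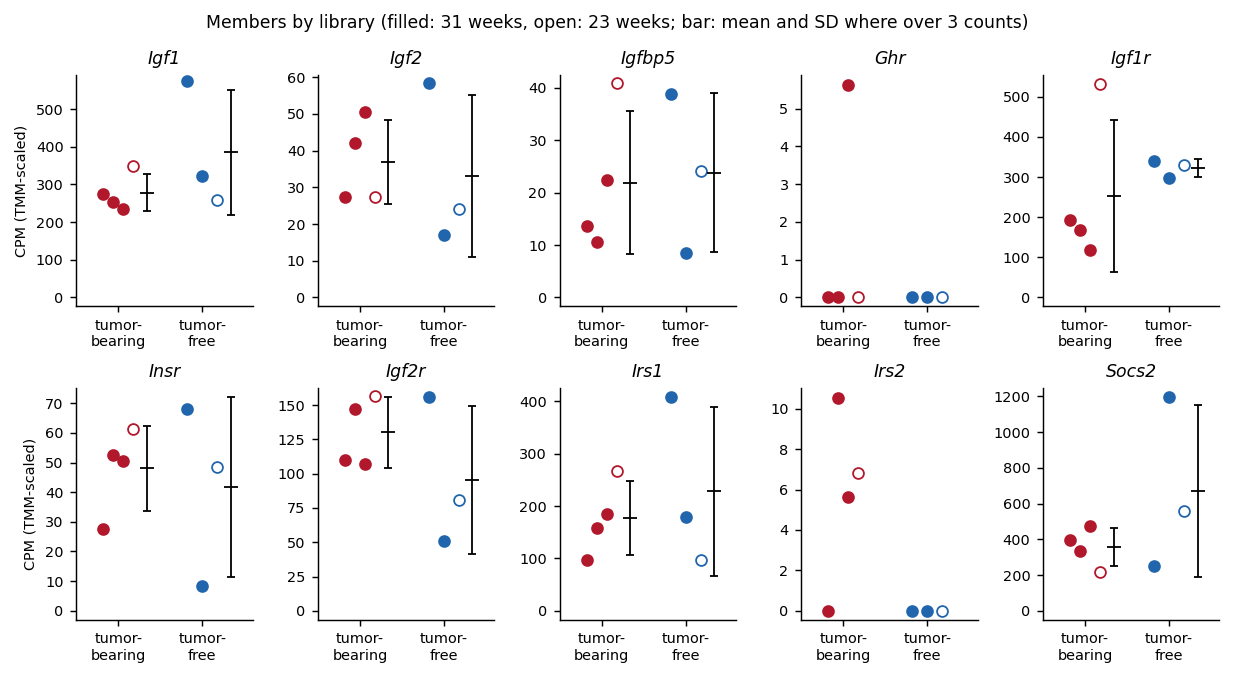
Level of each member in CPM on TMM-scaled library sizes, 1 point per mouse, tumor-bearing left and tumor-free right, with the mean and SD beside the points. Igf1r shows 3 low tumor-bearing libraries (118 to 192 CPM) and 1 high one (532 CPM) around a narrow tumor-free group (297 to 340.5 CPM), and Socs2 spreads most among tumor-free mice.

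Igf1 (gene ID 16000; chromosome 10, 87858265 to 87937047, mm10, plus strand), the main IGF of bone, was counted in every library. Its level was 274, 252, 236 and 348 CPM in tumor-bearing replicates 1 to 4 (20, 24, 42 and 51 counts) and 574, 323 and 258 CPM in tumor-free replicates 1 to 3 (59, 38 and 32 counts). The groups overlapped: tumor-bearing replicate 4 lay above the 2 lower tumor-free libraries, and tumor-free replicate 1 above all others. The log2 fold change was -0.45 (SE 0.34, 95% interval -1.25 to 0.35; adjusted p = 0.990, edgeR). It was -0.02 without tumor-free replicate 1. Its mean was 278 CPM in tumor-bearing mice, with the smallest SD relative to the mean of the 5 members tested (49.4 CPM, n = 4). In tumor-free mice the mean was 385 CPM and the SD 167 CPM (n = 3).

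Igf2 (16002; chromosome 7, 142650768 to 142666816, minus strand), the growth factor of fetal life that is expressed from the paternal allele, was sparse. It had 2, 4, 9 and 4 counts in tumor-bearing replicates 1 to 4 and 6, 2 and 3 counts in tumor-free replicates 1 to 3, which is below the filter for a test. With no filter its log2 fold change was 0.23 (SE 0.63, interval -1.07 to 1.53), and it was -0.20 without tumor-free replicate 2. The groups overlapped.

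Igfbp5 (16011; chromosome 1, 72858065 to 72874865, minus strand), the binding protein that stores IGFs in bone matrix, was also too sparse to test. It had 1, 1, 4 and 6 counts in tumor-bearing replicates 1 to 4 and 4, 1 and 3 counts in tumor-free ones. The fitted difference was 0.10 with no filter (SE 0.75), and its sign turned in several fits given in the closing section.

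Of the receptors, Igf1r (16001; chromosome 7, 67952257 to 68233668, plus strand), the kinase through which both IGFs act, had the most counts. It had 192, 168, 118 and 532 CPM in tumor-bearing replicates 1 to 4 (14, 16, 21 and 78 counts), against 340.5, 297 and 330.4 CPM in tumor-free replicates 1 to 3 (35, 35 and 41 counts). The tumor-free values lay close together, and 3 tumor-bearing libraries lay below all of them and replicate 4 above all of them. The log2 fold change was -0.44 (SE 0.39, 95% interval -1.35 to 0.47; adjusted p = 0.990, edgeR), and -1.10 without tumor-bearing replicate 4, a fit in which the age term also takes up the only other 23-week mouse. Replicate 4, with 32.5% of all Igf1r counts, was also the library with the highest summed level of 6 lung epithelial markers, 675 CPM, against 41.1 to 168 CPM in the other tumor-bearing and 127 to 243 CPM in the tumor-free libraries. Most of this sum was Epcam, a general epithelial gene, with 518 CPM in replicate 4, and Nkx2-1 made up 129.6 CPM. The surfactant genes had few counts there (Sftpb 3, Sftpc 1 and Sftpa1 0), and Scgb1a1 was at 0 in every library. The part of the list in the Igf1r value was not tested.

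Insr (16337; chromosome 8, 3150922 to 3279649, minus strand), the insulin receptor, whose signal in mouse osteoblasts is known to favour the release of active osteocalcin, was below the filter. It had 2, 5, 9 and 9 counts in tumor-bearing replicates 1 to 4 and 7, 1 and 6 counts in tumor-free replicates 1 to 3. With no filter its log2 fold change was 0.36 (SE 0.60, interval -0.88 to 1.59), and -0.14 without tumor-free replicate 2, which had the single count. Insr had fewer counts than Igf1r in each of the 7 libraries, and 4.17 against 21.04 counts per kb over all of them.

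Igf2r (16004; chromosome 17, 12682406 to 12769706, minus strand), which clears IGF2 and in mice is expressed from the maternal allele, was the only member tested with a value above 0. It had 109.7, 147, 107 and 157 CPM in tumor-bearing replicates 1 to 4 (8, 14, 19 and 23 counts), against 156, 50.9 and 80.6 CPM in tumor-free replicates 1 to 3 (16, 6 and 10 counts). Tumor-free replicate 1 lay among the tumor-bearing values and the other two below them. The log2 fold change was 0.47 (SE 0.42, 95% interval -0.50 to 1.45; adjusted p = 0.990, edgeR). It was 0.14 without tumor-free replicate 2 and 1.10 without tumor-free replicate 1 (unadjusted p = 0.0242, adjusted p = 0.998, edgeR). Airn, the antisense RNA that silences paternal Igf2r, lies in the same locus without sharing exon bases with the Igf2r transcript, and had 1 to 3 counts per library.

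Ghr (14600; chromosome 15, 3317755 to 3583352, minus strand), the growth hormone receptor, had 1 count in tumor-bearing replicate 3 and 0 in the other 6 libraries. Both groups were under the limit of 3 counts, so no fold is given. Its level was not detectable at this depth, that is, below 41.1 CPM in the shallowest library and 20.5 to 31.5 CPM in the other libraries at 0. The prolactin receptor gene Prlr, which signals through the same kinase JAK2, was detected with 137 to 348 CPM in tumor-bearing and 221 to 282 CPM in tumor-free libraries (log2 fold change 0.24, SE 0.34; adjusted p = 0.990, edgeR).

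Irs1 (16367; chromosome 1, 82233105 to 82291439, minus strand), a docking protein of the IGF1 and insulin receptors whose loss lowers bone turnover in mice, varied in both groups. It had 96.0, 158, 185 and 266 CPM in tumor-bearing replicates 1 to 4 (7, 15, 33 and 39 counts), against 409, 178 and 96.7 CPM in tumor-free replicates 1 to 3 (42, 21 and 12 counts). The groups overlapped almost fully apart from tumor-free replicate 1. The log2 fold change was -0.26 (SE 0.54, 95% interval -1.52 to 0.99; adjusted p = 0.990, edgeR) and turned to 0.46 without tumor-free replicate 1. In the annotation an exon of the gene model Gm9747 on the opposite strand overlaps 2822 bases of the Irs1 transcript, the longest such overlap. Gm9747 has no counts under that name in the deposited counts. Without a stated strand setting the reads of Gm9747 and Irs1 cannot be told apart.

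Irs2 (384783; chromosome 8, 10984681 to 11008929, minus strand), the second docking protein, had 1 count in each of tumor-bearing replicates 2, 3 and 4 and 0 counts in tumor-bearing replicate 1 and all tumor-free libraries. Both groups are at or under the limit of 3 counts, so no fold is given. Its opposite-strand neighbour 9530052E02Rik, whose longest overlap of an exon with the Irs2 transcript is 162 bases, had 10 to 24 counts per library.

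Socs2 (216233; chromosome 10, 95383903 to 95417321, minus strand), the inhibitor that growth hormone induces through STAT5 and whose loss makes mice grow larger, had the most counts and the largest fitted difference of the 5 members tested. It had 398, 336, 472 and 218 CPM in tumor-bearing replicates 1 to 4 (29, 32, 84 and 32 counts), against 253, 1197 and 556 CPM in tumor-free replicates 1 to 3 (26, 141 and 69 counts). The 2 highest libraries were tumor-free, but tumor-free replicate 1 lay below 3 of the 4 tumor-bearing libraries. The mean was 356 CPM in the 4 tumor-bearing mice, with an SD of 107 CPM, and 669 CPM in the 3 tumor-free mice, with an SD of 482 CPM. The log2 fold change was -0.97 (SE 0.48, 95% interval -2.08 to 0.15; unadjusted p = 0.0792, adjusted p = 0.990, edgeR). Tumor-free replicate 2 held 34.1% of all Socs2 counts; without it the log2 fold change was -0.23. Without tumor-free replicate 1 it was -1.46 (SE 0.26; unadjusted p = 0.000751, adjusted p = 0.493, edgeR), the smallest p of a member in any setting run.

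**Figure D3:**
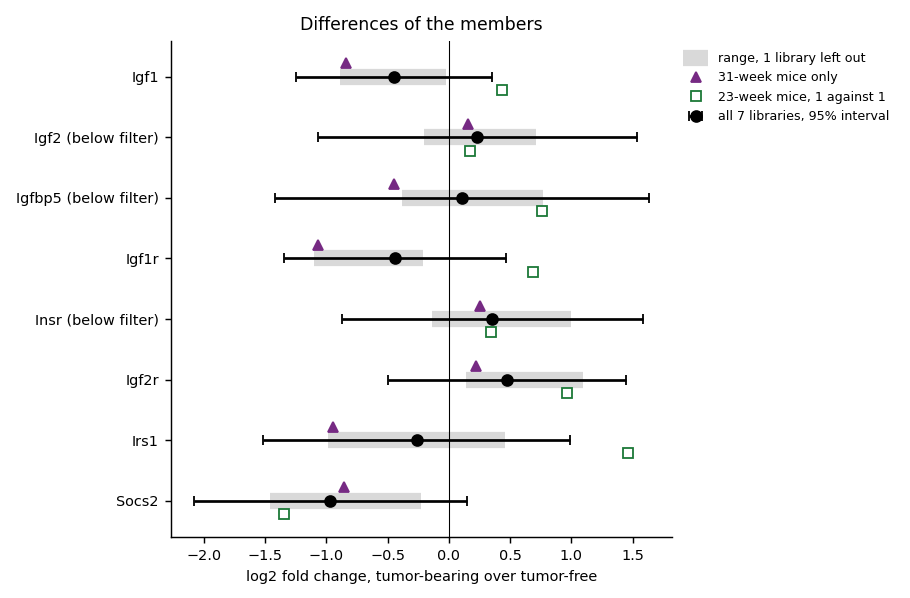
Log2 fold change, tumor-bearing over tumor-free, of the 8 members with more than 3 counts: black points with 95% intervals from all 7 libraries, grey bars for the range when 1 library is left out, triangles for the 31-week mice and squares for the single 23-week pair. Every 95% interval includes 0, and for Igf1, Igf1r, Irs1 and Igfbp5 the triangles lie below 0 and the squares above.

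The mice fall into 2 ages, and of the 8 members with a fitted value 4 differed in sign between the ages: Igf1, Igf1r, Irs1 and the sparse Igfbp5. The share of all genes tested that did so was not computed, so this count is a description only. Among the 31-week mice (3 tumor-bearing, 2 tumor-free) the log2 fold change was -0.84 for Igf1 (SE 0.35), -1.07 for Igf1r (SE 0.34; unadjusted p = 0.0177) and -0.94 for Irs1 (SE 0.48), with an adjusted p of 0.996 each (edgeR). Between the 23-week mice, 1 tumor-bearing against 1 tumor-free, the log2 ratio was 0.43 for Igf1, 0.69 for Igf1r and 1.46 for Irs1; with 1 mouse each this has no replicate check. Igfbp5, on 20 counts in all, had -0.45 at 31 weeks (SE 0.98, with no filter) and a log2 ratio of 0.76 at 23 weeks. At 31 weeks every tumor-bearing library was lower than every tumor-free one for 2 of the 5 members tested, Igf1 and Igf1r, against 8.46% of all genes tested, and higher for 0 members, against 10.1%. The difference between the ages was fitted as an interaction term, 31 weeks minus 23 weeks, after the values had been seen. It was -1.25 for Igf1 (SE 0.66; unadjusted p = 0.0996), -1.73 for Igf1r (SE 0.59; unadjusted p = 0.0226) and -2.38 for Irs1 (SE 0.92; unadjusted p = 0.0376). For Igf2r it was -0.71 (SE 0.95; unadjusted p = 0.479) and for Socs2 0.52 (SE 1.14; unadjusted p = 0.664). None of the 5 passed the adjustment (adjusted p = 0.999 each, edgeR), and of all genes tested 0% did, with 3.97% at an unadjusted p under 0.05. The age and the single mouse that carries it in each group cannot be told apart.

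Socs2 and Igf2r kept one sign at both ages, as did the sparse Igf2 (0.15 at 31 weeks and 0.17 at 23 weeks) and Insr (0.25 and 0.34). Socs2 had a log2 fold change of -0.85 at 31 weeks (SE 0.60) and a log2 ratio of -1.35 at 23 weeks. Igf2r had 0.22 at 31 weeks (SE 0.53) and 0.96 at 23 weeks. Neither Socs2 nor Igf2r passed the test (adjusted p = 0.996 each at 31 weeks, edgeR).

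The other genes of the pathway were taken as lists of 93 genes by role. Of these 26 had 0 counts in every library and 17 could be tested; 0 passed in either direction (lowest adjusted p = 0.990, edgeR), 0 had an unadjusted p under 0.05, and for 0 did the groups of libraries not overlap. Their median log2 fold change was 0.03, with 9 above 0 and 8 below, beside 0.04 over all genes tested.

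Ligands other than the IGFs were not seen: Ins1, Ins2, Gh and Prl had 0 counts in all 7 libraries, as had the insulin receptor relative Insrr. The IGF binding proteins, their proteases and the IGF2 mRNA-binding proteins were sparse, with 11 of 15 detected and 4 tested. Igf2bp2, which binds Igf2 mRNA, had a log2 fold change of 0.39 (SE 0.48), Igf2bp1 one of 0.06 (SE 0.35) and Igf2bp3 one of -0.56 (SE 0.72). Pappa, a protease that frees IGFs from their binding proteins, had -0.09 (SE 0.38). Its relative Pappa2, which was singled out after its values were seen and was too sparse for the filter, had 4, 4, 5 and 6 counts in tumor-bearing replicates 1 to 4 against 1, 1 and 2 counts in tumor-free replicates 1 to 3. The groups did not overlap, and with no filter the log2 fold change was 1.74 (95% interval 0.22 to 3.25; unadjusted p = 0.0261, adjusted p = 0.795, edgeR). In that fit 458 of 13344 genes had an unadjusted p under 0.05, and 1 of 67 other pathway genes, Pappa2 itself. Among the sparse pathway genes Sort1, lower in tumor-bearing mice, and Gab1, Stat5a and Socs7, higher, did not overlap in CPM either. In raw counts each had a tie between the groups, so this rests on the library sizes. Tumor-bearing against tumor-free counts were 0 to 2 against 2 to 3 for Sort1 and 1 to 3 against 0 to 1 for Gab1. For Stat5a they were 2 to 7 against 1 to 2, and for Socs7 2 to 5 against 1 to 2. The share of all sparse genes that do not overlap was not computed. Of the 14 adaptors and receptor inhibitors, 2 could be tested. Grb10, an imprinted adaptor that inhibits the insulin and IGF1 receptors, had -0.29 (SE 0.40), and the phosphatase gene Ptpn2 had -0.24 (SE 0.33). All 6 tested had an adjusted p of 0.990 (edgeR).

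The arm from growth hormone receptor to STAT5 was near the limit of detection apart from Socs2. Of 10 genes 6 were detected and 0 could be tested: Stat5a had 1 to 7 counts per library, Stat5b 0 to 4, Jak2 0 to 1, and Cish, another STAT5 target, 0 in every library. Their summed level was 67.4 to 105 CPM in tumor-bearing and 25.5 to 48.6 CPM in tumor-free libraries. The 4 tumor-bearing sums lay above the 3 tumor-free ones. This list was singled out after its values were seen, it rests on few counts, and it was not tested.

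Of 25 genes of the PI3K, AKT and mTOR branch 6 could be tested. The catalytic subunit gene Pik3ca had a log2 fold change of 0.31 (SE 0.45), the regulatory subunit gene Pik3r1 0.23 (SE 0.31) and Rictor, which defines mTOR complex 2, 0.31 (SE 0.47). Gsk3b, a kinase that AKT inhibits, had -0.37 (SE 0.58) and Pdpk1, the kinase that activates AKT, -0.14 (SE 0.49). In the RAS branch Nras was the only gene of 10 tested, with 0.29 (SE 0.29). Each of these had an adjusted p of at least 0.990 (edgeR).

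FoxO factors are kept out of the nucleus by insulin and IGF signals. Foxo1, the main one in osteoblasts, had 274, 420.4, 107 and 75.0 CPM in tumor-bearing replicates 1 to 4, against 156, 620 and 193 CPM in tumor-free replicates 1 to 3, with overlapping groups (log2 fold change -0.78, SE 0.60). The cell cycle inhibitor gene Cdkn1b, a FoxO target, had -0.26 (SE 0.25) and the ubiquitin ligase gene Fbxo32, another, 0.05 (SE 0.19; adjusted p = 0.990 for each of the 3, edgeR). Of the 12 genes of the list, 3 were tested.

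**Figure D4:**
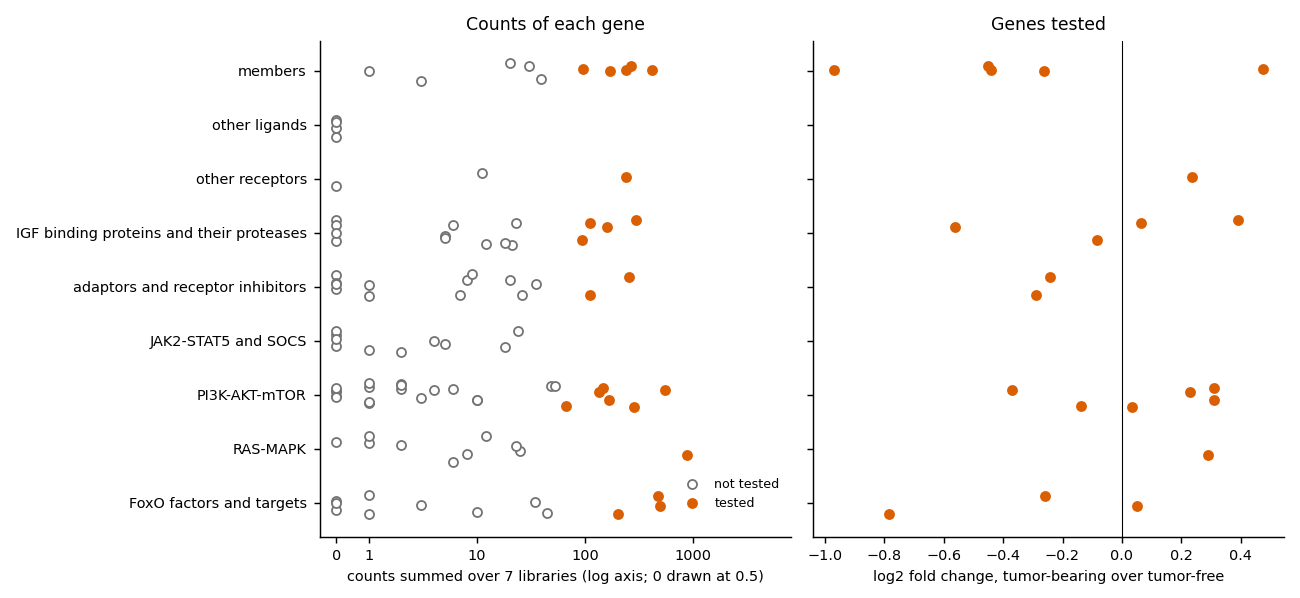
Left, counts summed over the 7 libraries for each of the 10 members and 93 other pathway genes by role (log axis, 0 drawn at 0.5; filled points were tested). Right, log2 fold change, tumor-bearing over tumor-free, of the genes tested, which for the 17 other genes lies between -0.78 and 0.39.

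The genes whose levels across the 7 libraries were most like those of each member tested were also listed, by the root mean square difference of log2 CPM after centring each gene. For Igf1 these were Hsf2 (0.10) and Znrf3 (0.14), against a median difference of 0.59 over all genes tested. For Igf2r they were Uba1y (0.17) and Net1 (0.22), and for Irs1 Trim71 (0.21) and Ccdc6 (0.22). Igf1r and Socs2 had no neighbour as close: Zfp467 (0.33) and Kank2 (0.40) were nearest to Igf1r, and Llph (0.34) and Kcnma1 (0.35) to Socs2. The median difference was 0.69 for Igf2r, 0.82 for Irs1, 0.81 for Igf1r and 0.86 for Socs2. The measure was not scaled by the spread of each member about its own mean. That spread was 0.41 for Igf1, 0.55 for Igf2r, 0.69 for Irs1, 0.68 for Igf1r and 0.76 for Socs2. With 2495 genes and 7 libraries this is a description only.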

How the data were processed

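Trizol RNA of the sorted cells was turned into multiplexed 3′-end libraries with molecular identifiers (custom CEL-Seq), per the labels' protocols. TopHat2 2.0.10, SAMtools and mm10 are listed in the submitters' processing notes. No source used here states the counting program, annotation, strand setting or whether identifiers were collapsed. The authors deposited raw whole-number counts for each gene ID. A RefSeq table (GRCm38.p6) named 23666 of the 23725 IDs and all 10 members. No library repeated another (lowest chi-square per degree of freedom 3.57).

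In R 4.3.3 with edgeR 4.0.16, filterByExpr (minimum count 10, minimum total 15) left 2495 genes with 84.2% to 87.8% of counts. Scaling was TMM (factors 0.945 to 1.05), and the test glmQLFit (robust, legacy off) and glmQLFTest with age as a factor, adjusted by Benjamini-Hochberg at 0.05. The SE was the log2 fold change over the root of F; the prior count was 0.125. Members below the filter were given from a fit with no filter. On simulated counts the fit returned the fold changes put in, but at the smallest of them hardly any changed gene passed the adjusted threshold. DESeq2 1.42.0, limma voom 3.58.1 and other alternatives are in the closing section. The interaction with age and the legacy fit were added after seeing the data.

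The members, gene lists and tests were chosen with earlier results of these data known. Named were all members, up to 8 other pathway genes per direction with the smallest p, the 2 nearest genes to each tested member and 5 defining markers; other genes were chosen after their values were seen. Mice are the replicates. Some alleles, genes and sequences are not reported here.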

Additional observations from a re-analysis of the deposited data

Results flagged for a closer look

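Among the 24 members and named pathway genes with at least 10 counts in tumor-bearing mice, 1 had a tumor-bearing library that stood far from the other 3. Igf2bp3, an RNA-binding protein gene of the IGF2 mRNA-binding family, had 384 CPM in tumor-bearing replicate 1 against 88.7 to 135 CPM in the other tumor-bearing libraries; its gap to the nearest of them was 0.844 of the group's range, above Dixon's 95% critical value for 4 samples. Chance flags about 1 in 20 such groups, and tumor-free replicate 2 was higher still at 526 CPM.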

How the results depend on the processing

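No member and no other pathway gene passed the adjusted threshold in the main fit or in 17 alternatives, 16 of them planned: no age term, 31-week mice only, replicate block, DESeq2, limma voom, RLE scaling, total counts, filtering off, a filter of 30 counts in 3 or more libraries and each of 7 libraries left out; the legacy fit was added after seeing the data. Over all genes the count was 0 in each, with 32 to 458 genes at an unadjusted p under 0.05 (67 in the main fit; 49 with DESeq2, 72 with limma voom). Of the 5 members tested, 0 were at an unadjusted p under 0.05 in the main fit (edgeR). Without tumor-bearing replicate 4 there were 2 (Igf1 and Igf1r), beside 93 of 2281 genes tested in that fit. Without tumor-free replicate 1 there were 2 (Igf2r and Socs2), beside 121 of 2688 genes. Igf1r alone was counted in 31-week mice (82 of 2329 genes), the replicate block (37 of 2281) and without tumor-free replicate 3 (92 of 2592). Igf1, Igf1r and Socs2 stayed below 0 and Igf2r above 0 wherever they could be fitted. Igfbp5 turned from 0.10 to -0.45 in 31-week mice, -0.39 with the replicate block and -0.13 with DESeq2; the cause was not tested. With 1 library left out, values ran from -0.39 to 0.77 for Igfbp5, -0.20 to 0.71 for Igf2, -0.14 to 0.996 for Insr, -0.99 to 0.46 for Irs1, -0.89 to -0.02 for Igf1, -1.10 to -0.21 for Igf1r, 0.14 to 1.10 for Igf2r and -1.46 to -0.23 for Socs2. Leaving out either 23-week mouse removes the other from the contrast too, since the age term takes it up. Same-numbered mice did not deviate together (correlations -0.204 to -0.118 over genes). The 23-week mice, tumor-bearing replicate 4 and tumor-free replicate 3, gave 0.0249, so the measure did not pick out mice matched for age. It therefore cannot decide whether the replicate numbers pair the mice. The mice numbered 3 differ in age. The replicate block left out tumor-bearing replicate 4 and called 0 genes. The median 95% interval of a gene reached 0.78 to either side, which limits what differences these libraries can show.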
